A study of Mus musculus with 30 samples.

Results

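The ER-MyoD RRR and ER-MyoD wt arrays taken 12 h and 24 h after the change to differentiation medium were used to ask which differences between the mutant and the wild type closed after 12 h and which opened. These were 12 of the 30 arrays of the series, 3 in each of 4 groups, chosen by genotype and time. All cells were mouse embryonic fibroblasts from MyoD-/-/Myf5-/- animals, so every group lacked the endogenous genes of both muscle-determination factors. They carried a retrovirus encoding mouse MyoD joined to the hormone-binding domain of the estrogen receptor. The fusion was either normal (ER-MyoD wt) or non-acetylatable at lysines 99, 102 and 104 of MyoD (ER-MyoD RRR), and control cells carried an empty retrovirus. All groups used here were kept in skeletal muscle differentiation medium with beta-estradiol for 6, 12 or 24 h. The arrays at 6 h and the empty retrovirus arrays at 12 h and 24 h served as further values for the same genes. The fusion is expressed from the retrovirus and not from the Myod1 locus, which limits the cells as a model of endogenous MyoD. In the text below, the wild type is ER-MyoD wt and the mutant is ER-MyoD RRR.

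MyoD is a basic helix-loop-helix transcription factor that binds E-box sequences and can turn fibroblasts into skeletal muscle cells. It recruits acetyltransferases, which acetylate histones and also lysines of MyoD itself. Joined to the estrogen receptor domain, the protein becomes active when the hormone is added, so that genes can be followed from a common start: early targets such as myogenin come first, and genes of the contractile apparatus follow, while the fibroblast programme and the cell cycle are shut down.

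The change of a difference was measured as an interaction: the mutant minus wild-type difference at 24 h, minus the same difference at 12 h, on the log2(signal + 16) scale. A positive value means that the mutant moved up relative to the wild type between 12 h and 24 h. This scale understates the change of genes with low signal. Signals given array by array, in the order of replicates 1 to 3, are the deposited values, and log2 differences were computed after quantile normalisation. Values after ± are standard errors of log2 differences from the limma model with n = 3 arrays a group, and a gene passed when its Benjamini-Hochberg adjusted p was under 0.05 over all 18193 genes. Whether the 3 arrays of a group represent separate cultures is not stated in the labels, and a p-value here may therefore reflect technical spread alone.

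Each of the 12 arrays correlated best with an array of its own group, and replicates correlated with Pearson's r of 0.946 to 0.971. The Actb 3' to 5' signal ratio, which rises as RNA degrades, reached 2.07 at 12 h and 1.93 at 24 h in the wild type, and 1.74 and 1.65 in the mutant. ER-MyoD wt 24 h replicate 3 stood apart, with a median signal of 59.2 against 45.3 and 39.2 in wild-type replicates 1 and 2 at 24 h. The mutant medians at 24 h were 52.0 to 54.0. At 12 h the medians were 41.6 to 45.2 in the wild type and 41.4 to 44.4 in the mutant. The part of these medians in the interactions was not tested. Myod1 signals overlapped between the fusions at both times: 468 to 1061 in the wild type and 298 to 820.2 in the mutant at 12 h, and 451 to 745 and 306 to 580.4 at 24 h. At this probe set the mutant minus wild-type difference of Myod1 was -0.61 at 12 h and -0.38 at 24 h on the log2 scale. Its interaction was 0.23 ± 0.50 (adjusted p = 0.959, 95% interval -0.79 to 1.25). A second Myod1 probe set, with a mean signal of 18.7, had differences of 0.52 and -0.38. The part of Myod1 level in the other differences was not tested. Myf5 signals lay between 152 and 499.9 over the same arrays, and where the Myod1 and Myf5 probe sets lie relative to the deletion was not known here. None of the 11 fibroblast markers was under a signal of 100 in all 12 arrays, whereas 11 of 12 cardiac, 8 of 10 epithelial and 7 of 11 neuronal and glial markers were. So were 6 of 10 endothelial, 5 of 8 adipocyte, 5 of 10 macrophage and blood, and 4 of 9 chondrocyte and osteoblast markers.

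Of the genes whose difference changed between the times, nearly all were higher in the mutant relative to the wild type at 24 h than at 12 h. The 4 smallest adjusted p-values belonged to the matrix genes Lox, Postn and Fbln5 and to Tnnc1, a gene of the contractile apparatus. The interaction passed in 58 genes, 0.319% of those tested, with 54 positive (0.297%) and 4 negative (0.022%). An unadjusted p under 0.05 was reached by 1587 genes, and the median standard error of an interaction was 0.36. At 12 h 161 genes were higher in the mutant and 158 lower (1.75% of genes in all), and at 24 h 608 were higher (3.34%) and 367 lower (2.02%), 5.36% in all. Of the 158 genes lower at 12 h, 9 closed (0.0495% of genes), 1 partly closed (0.0055%), 3 crossed over (0.0165%) and 145 had an interaction that did not pass. Of the 161 higher at 12 h, 2 closed (0.011%), 1 widened (0.0055%) and 158 had an interaction that did not pass. A further 41 genes opened after 12 h, 39 with the mutant higher (0.214% of genes) and 2 with it lower (0.011%), and 1 gene passed only in the interaction (0.0055%). By these rules a difference closed when the interaction and the 12 h difference passed with opposite signs and the 24 h difference did not pass, partly closed when the 24 h difference still passed, and crossed when the 24 h difference passed with the other sign. A difference opened when the interaction passed and the difference itself passed at 24 h and not at 12 h. The number of genes depended on normalisation: 31 passed on the values as deposited, and only Lox passed with median centring, which moved the median interaction of all genes from -0.00066 to -0.11. Leaving out 1 array gave 31 to 69 genes. The count fell by more than 1.5 times without wild-type 12 h replicates 1 (31) or 3 (36), wild-type 24 h replicate 1 (31), mutant 12 h replicates 2 (31) or 3 (33), or mutant 24 h replicate 1 (36). It was 42 without wild-type 24 h replicate 3.

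**Figure D1:**
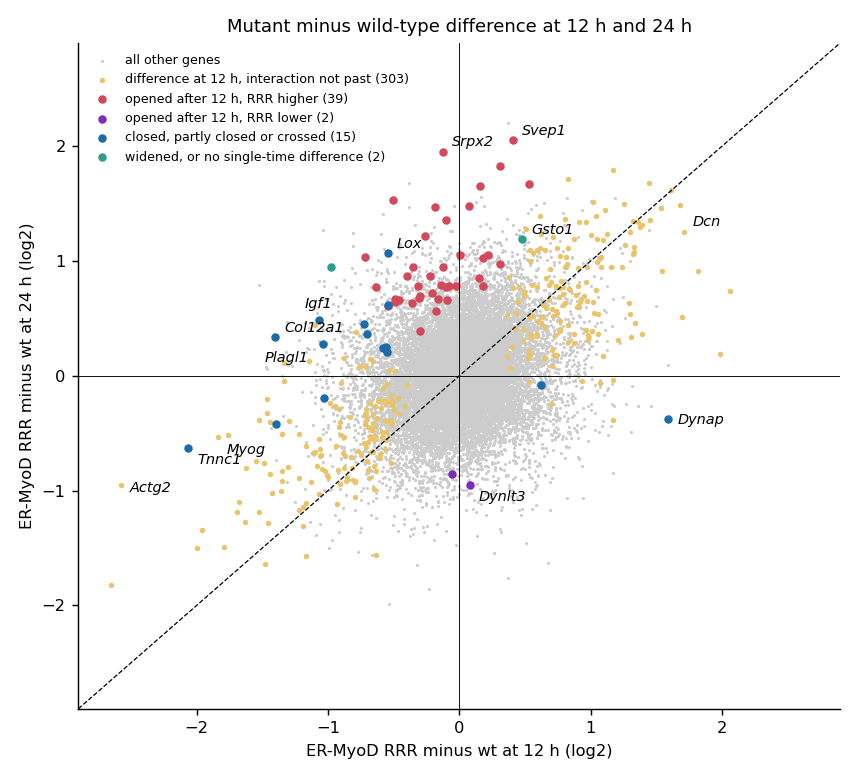
Each point is 1 of 18193 genes, placed by its mutant minus wild-type difference at 12 h (x axis, log2) and at 24 h (y axis, log2), with coloured points for the classes described in the text. The 39 red genes that opened lie between -0.72 and 0.53 on the x axis and above 0.39 on the y axis, and the 13 genes with a 12 h deficit that closed, partly closed or crossed lie left of 0 and above the dashed line of equal differences.

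The genes that differed at 12 h and those that differed at 24 h come from different arrays. Of the 161 genes higher in the mutant at 12 h, 98 were also called higher at 24 h, which is 60.9% of the 12 h list and 16.1% of the 24 h list of 608. Of the 158 lower at 12 h, 73 were called lower again, 46.2% of the 12 h list and 19.9% of the 24 h list of 367. At 24 h 3.34% of all genes were called higher and 2.02% lower. The 12 h genes had a median difference of 0.82 when higher and -0.82 when lower. At 24 h the medians of the same genes were 0.70 and -0.53. Genes called at 12 h were chosen for a large difference there, so some shrinkage at 24 h is built into this comparison.

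Among 19 genes that passed with any 1 of the 12 arrays left out, 1 was a gene of the contractile apparatus. Tnnc1 encodes the troponin C of slow and cardiac muscle, the calcium sensor of the thin filament. For Tnnc1, the wild-type arrays read 1105, 1108 and 1508 at 12 h and 2545, 3247 and 3035 at 24 h, and the mutant arrays 247, 304 and 269 and 1685, 1809 and 1811. The mutant arrays were below all wild-type arrays at both times, and the groups did not overlap. The log2 difference was -2.06 at 12 h and -0.63 at 24 h, so the deficit closed only in part, with an interaction of 1.44 ± 0.21 (adjusted p = 0.000910). Tnnc1 rose in both kinds of cells after 12 h, by 1.29 in the wild type (adjusted p = 1.04e-07) and by 2.73 in the mutant (adjusted p = 1.4e-13). On the linear scale the mean gap was -967 signal units at 12 h and -1174 at 24 h. The gap was therefore smaller as a ratio at 24 h but not smaller in signal units. In these bulk samples fewer muscle cells and less of this RNA per cell cannot be told apart. Empty retrovirus cells had 95.2, 108 and 84.2 at 24 h. At 6 h, on arrays the interaction does not use, the mutant was already lower, with a difference of -1.19 (adjusted p = 1.74e-05). With median centring the interaction was 1.23 and did not pass (adjusted p = 0.0947).

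The 250 bases before the RefSeq start of Tnnc1 (GRCm38.p6, chr14:31208062-31208311, + strand) and of Myog (chr1:134289754-134290003, + strand), the gene of myogenin, are shown because both muscle genes had called deficits at 12 h that were smaller on the log2 scale at 24 h. Capitals mark CANNTG, the letters of an E-box. A match to this pattern on either strand is a match on the other, though its middle letters can differ there.
Tnnc1: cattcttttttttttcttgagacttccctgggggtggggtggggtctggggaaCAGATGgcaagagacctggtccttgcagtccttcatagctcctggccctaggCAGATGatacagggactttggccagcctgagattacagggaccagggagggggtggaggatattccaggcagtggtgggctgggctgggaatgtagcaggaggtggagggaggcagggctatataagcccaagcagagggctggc
Myog: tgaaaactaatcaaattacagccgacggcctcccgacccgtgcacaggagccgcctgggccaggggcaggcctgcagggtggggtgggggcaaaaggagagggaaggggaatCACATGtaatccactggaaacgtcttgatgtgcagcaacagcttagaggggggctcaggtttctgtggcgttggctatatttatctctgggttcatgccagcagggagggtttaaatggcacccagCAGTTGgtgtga
Each window held 2 CANNTG matches and no CAGCTG. For comparison, 66.2% of 32851 windows of the same length in the RefSeq table held CANNTG and 13.0% held CAGCTG. The upstream windows of Postn, a gene that opened after 12 h, held 0 matches of either at both of its listed starts. A match describes the letters only.

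Lox encodes lysyl oxidase, which cross-links collagen and elastin, and its interaction had the smallest adjusted p of all genes. Wild-type Lox signals were 1144, 1214 and 1005 at 12 h and 506, 382 and 480.1 at 24 h, and in the mutant they were 675, 768 and 812 at 12 h and 1002, 1004 and 783 at 24 h. At 12 h every mutant array was below the wild-type arrays, and at 24 h every mutant array was above them. The difference went from -0.54 (adjusted p = 0.0269) to 1.07 (adjusted p = 6.13e-06), an interaction of 1.61 ± 0.19 (adjusted p = 5.54e-05). Lox fell by 1.20 in the wild type between the times and rose by 0.41 in the mutant (adjusted p = 0.0308). In empty retrovirus cells Lox rose from 812, 925 and 891 to 2221, 1869 and 1793, so all arrays of both fusions were below the control at 24 h. The other Lox probe sets gave 0.79 and 0.0033, and the mean over all 3 gave 0.80 (adjusted p = 0.0573).

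Fbln5 and Rftn1 crossed in the same way. Fbln5 encodes fibulin-5, a protein needed to assemble elastic fibres. Fbln5 arrays of the wild type gave 2562, 2306 and 2326 at 12 h and 491, 462 and 447 at 24 h, while those of the mutant gave 1525, 1344 and 1419.7 and 701, 615 and 573. The groups did not overlap at either time, with the mutant lower first and higher later. Both kinds of cells lost Fbln5 signal, the wild type by 2.25 and the mutant by 1.07 on the log2 scale, and the interaction was 1.18 ± 0.17 (adjusted p = 0.000824). It was 0.73 (adjusted p = 0.361) as the mean over its probe sets. Rftn1 encodes raftlin, a protein of membrane rafts. Rftn1 signals at 12 h were 454, 464 and 445 in the wild type and 288, 302 and 336 in the mutant, and at 24 h 151, 149 and 153 in the wild type and 246, 249 and 228 in the mutant. The mutant arrays were all below the wild type first and all above it later. Rftn1 fell by 1.51 in the wild type, its change in the mutant did not pass (-0.35, adjusted p = 0.0672), and the interaction was 1.15 ± 0.18 (adjusted p = 0.00300).

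Deficits that closed were found in 9 genes. Col12a1, a collagen that binds the surface of fibrils, had the largest interaction of them, 1.73 ± 0.37 (adjusted p = 0.0335). For Col12a1, the wild-type arrays read 840.4, 577 and 566 at 12 h and 220.2, 187 and 128 at 24 h, and the mutant arrays 303, 195 and 220.5 and 267, 179 and 238. Mutant arrays were below wild-type arrays at 12 h and overlapped them at 24 h, after the wild type had fallen by 1.84. Its 3 other probe sets also had positive interactions, 0.40 to 0.88, and the mean over all of them was 0.91 (adjusted p = 0.285). The Col12a1 call held in 6 of 12 fits that left out 1 array (adjusted p 0.0311 to 0.126).

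The interactions of Igf1, Plagl1 and P4ha2 passed with any 1 array left out. Igf1 encodes insulin-like growth factor 1, which promotes growth and differentiation of muscle cells. Wild-type Igf1 signals were 141, 159 and 168 at 12 h and 220.0, 196 and 193 at 24 h, and in the mutant they were 53.6, 77.8 and 59 at 12 h and 316, 305 and 254 at 24 h. The mutant was lower at 12 h, without overlap, and its arrays were above the wild-type arrays at 24 h, where the difference of 0.48 did not pass (adjusted p = 0.220). The mutant gained 1.87 between the times (adjusted p = 1.11e-07), the change in the wild type was 0.32 (adjusted p = 0.373), and the interaction was 1.55 ± 0.30 (adjusted p = 0.0138). Empty retrovirus cells rose as well, from 92.3, 94.2 and 62.9 to 251, 253 and 209. All 3 other Igf1 probe sets had positive interactions, 0.80 to 1.28, and the mean over all of them did not pass (adjusted p = 0.0560).

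Plagl1 is an imprinted gene for a zinc finger transcription factor that restrains growth. Plagl1 arrays of the wild type gave 928, 734 and 587 at 12 h and 1035, 1105 and 980.3 at 24 h, while those of the mutant gave 396, 303 and 356 and 1295, 1359.5 and 968. The groups were apart at 12 h and overlapped at 24 h. Its interaction was 1.32 ± 0.24 (adjusted p = 0.0120), but its other probe sets gave 0.55 and -0.16, and the mean over probe sets 0.57 (adjusted p = 0.447). P4ha2 encodes a subunit of the prolyl 4-hydroxylase that modifies collagen. P4ha2 signals at 12 h were 923, 852 and 789 in the wild type and 397, 373 and 461 in the mutant, and at 24 h 564, 678 and 616 in the wild type and 529, 502 and 552 in the mutant. Mutant arrays were lower at both times, and the difference of -0.20 at 24 h did not pass (adjusted p = 0.377). P4ha2 fell by 0.43 in the wild type and rose by 0.41 in the mutant, and the interaction was 0.84 ± 0.15 (adjusted p = 0.0108). P4ha2 showed no called difference at 6 h (-0.13, adjusted p = 0.606), unlike Igf1 (-1.46, adjusted p = 8.52e-05) and Plagl1 (-0.93, adjusted p = 0.00185).

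Fhl1 and Gins3 are closing genes of other kinds. Fhl1 encodes a LIM-domain protein abundant in muscle. For Fhl1, the wild-type arrays read 589, 583 and 683 at 12 h and 233, 270.4 and 227 at 24 h, and the mutant arrays 196, 259.6 and 219 and 198, 149.6 and 213. Every mutant array was below the wild type at both times, the difference shrank from -1.39 to -0.42 (adjusted p = 0.121 at 24 h), and the interaction was 0.97 ± 0.21 (adjusted p = 0.0413). Gins3 encodes a subunit of the GINS complex of the replication helicase. Wild-type Gins3 signals were 569, 490.0 and 545 at 12 h and 107, 135 and 131 at 24 h, and in the mutant they were 277, 371 and 333 at 12 h and 153, 201 and 158 at 24 h. Mutant arrays were below the wild type at 12 h and above it at 24 h, when the difference of 0.37 did not pass. Gins3 fell in both, the wild type by 2.00 and the mutant by 0.93, and the interaction was 1.07 ± 0.22 (adjusted p = 0.0247). The other probe sets of Fhl1 and Gins3 gave -0.32 and 0.16, and the means over probe sets 0.33 (adjusted p = 0.856) and 0.61 (adjusted p = 0.503). With 1 array left out, Fhl1 passed in 3 of 12 fits (adjusted p 0.0140 to 0.124) and Gins3 in 5 (adjusted p 0.0160 to 0.0901). The remaining closing genes, named here after their values were seen, were Col4a1, a basement membrane collagen (0.82), Ccn4, a matricellular protein (0.81), and Ncbp3, an RNA cap-binding protein (0.76).

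Excesses of the mutant closed in only 2 genes, Ctsl and Dynap. Ctsl encodes the lysosomal protease cathepsin L. Ctsl arrays of the wild type gave 5077, 5110.4 and 4263 at 12 h and 7497, 8556 and 8245 at 24 h, while those of the mutant gave 6318, 7896 and 6574 and 7484, 6773 and 7341. Mutant arrays were above the wild type at 12 h and just below it at 24 h. The wild type rose by 0.71 (adjusted p = 4.01e-06), and the interaction was -0.70 ± 0.14 (adjusted p = 0.0222). Dynap, for a dynactin-associated membrane protein, closed by a change in the mutant, which fell by 1.59 (adjusted p = 0.000429). Dynap signals at 12 h were 9.91, 12.1 and 7.02 in the wild type and 51.8, 73.6 and 52.6 in the mutant, and at 24 h 42, 8.32 and 12.5 in the wild type and 29.6, 6.14 and 4.63 in the mutant. The groups were apart at 12 h and overlapped at 24 h, and most of these signals are low. The interaction of -1.96 ± 0.44 (adjusted p = 0.0453) passed in 3 of 12 fits with 1 array left out (adjusted p 0.0251 to 0.151), that of Ctsl in 5 (adjusted p 0.0180 to 0.0669).

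**Figure D2:**
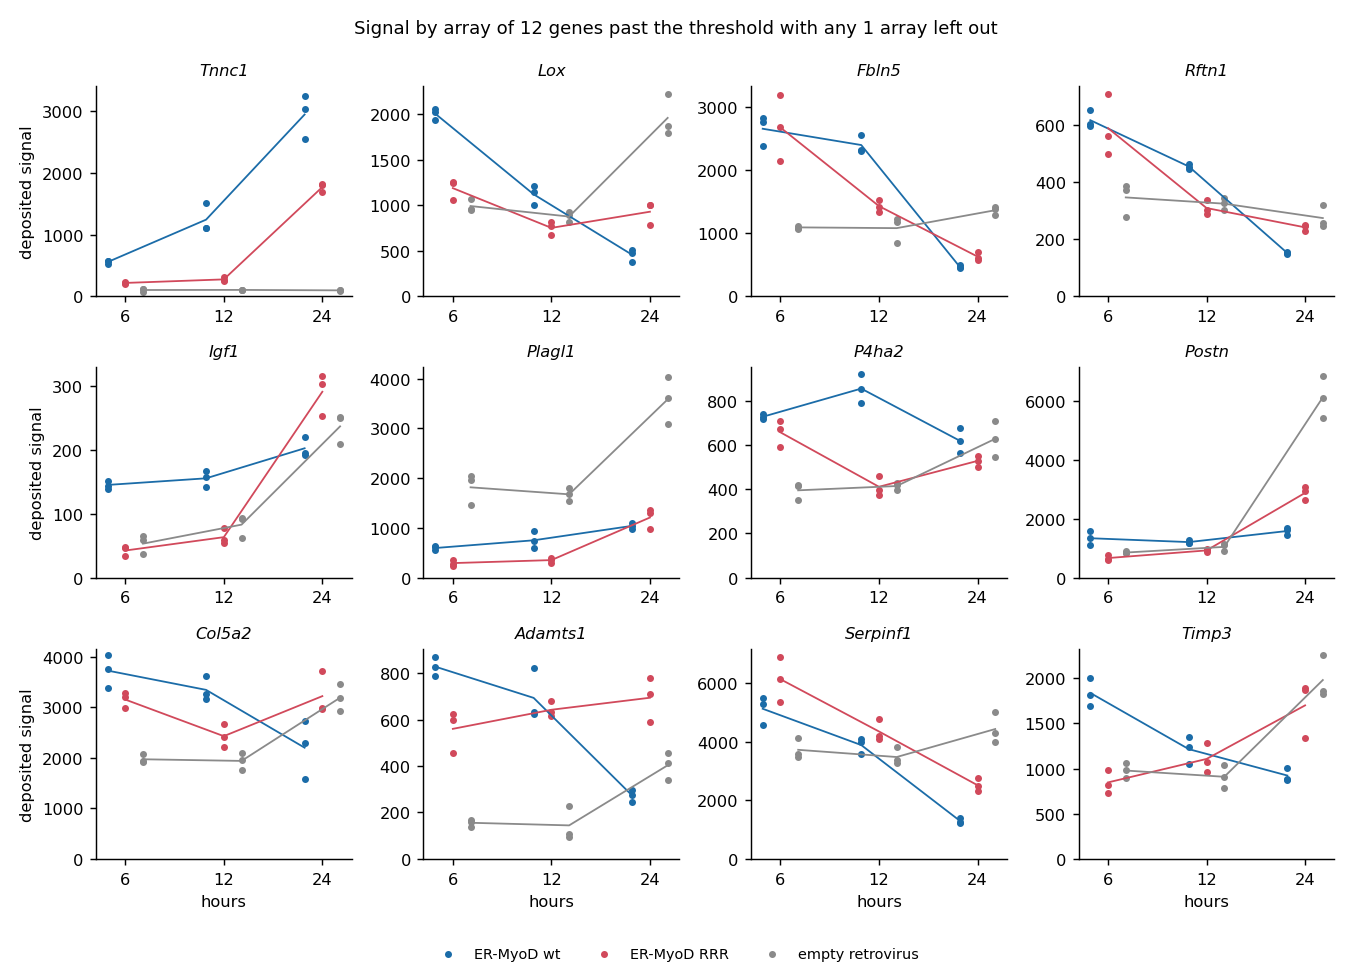
Deposited signal (y axis) against hours in differentiation medium (x axis, spaced by time point) for 12 genes that passed with any 1 array left out, with 1 point per array and lines through the group means. Tnnc1 is lower in the mutant than in the wild type at 12 h and at 24 h, and Lox, Fbln5 and Rftn1 change from a lower to a higher mutant between these times.

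Of the 39 genes that opened with the mutant higher, 12 passed with any 1 array left out. The 5 of these described first were picked by the naming rule as members of the matrix and protease lists, so their common theme comes from the choice. Postn encodes periostin, a matricellular protein of fibroblasts. For Postn, the wild-type arrays read 1287, 1170.3 and 1166 at 12 h and 1618, 1699.9 and 1438 at 24 h, and the mutant arrays 938, 864 and 971 and 3072, 2934 and 2639.8. Mutant arrays were below the wild type at 12 h, where the difference of -0.35 did not pass (adjusted p = 0.179), and far above it at 24 h. Postn rose by 1.75 in the mutant and by 0.45 in the wild type, and its interaction was 1.30 ± 0.17 (adjusted p = 0.000348). Empty retrovirus cells reached 6108, 6844 and 5439 at 24 h, above both fusions. On the arrays at 6 h Postn was lower in the mutant (-0.94, adjusted p = 2.49e-05). Col5a2 encodes a chain of type V collagen, which sets the diameter of collagen fibrils. Wild-type Col5a2 signals were 3618, 3255 and 3155 at 12 h and 2300.2, 2727 and 1571 at 24 h, and in the mutant they were 2409.9, 2666 and 2206 at 12 h and 3716, 2985 and 2955 at 24 h. Every mutant array was below the wild type at 12 h, without a call (-0.46, adjusted p = 0.0630), and above it at 24 h. Col5a2 fell by 0.59 in the wild type and rose by 0.52 in the mutant (interaction 1.12 ± 0.18, adjusted p = 0.00300).

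Adamts1, Timp3 and Serpinf1 act on or around the matrix as a protease of proteoglycans, an inhibitor of metalloproteases and a secreted serpin. Adamts1 arrays of the wild type gave 633, 822 and 625 at 12 h and 298, 274 and 246 at 24 h, while those of the mutant gave 679.9, 632 and 615 and 781, 711 and 590.1. The groups overlapped at 12 h, and at 24 h all mutant arrays were above the wild type. The wild type fell by 1.28, and the change in the mutant did not pass (0.18, adjusted p = 0.619). The interaction of Adamts1 was 1.46 ± 0.26 (adjusted p = 0.00805), and empty retrovirus cells were lower than the mutant at 24 h, with 455, 341 and 413. Timp3 signals at 12 h were 1053, 1240.2 and 1352 in the wild type and 963, 1284 and 1074 in the mutant, and at 24 h 885, 1009 and 874 in the wild type and 1868, 1339 and 1892 in the mutant. Only at 24 h were the groups apart. Timp3 rose by 0.74 in the mutant, its change of -0.33 in the wild type did not pass (adjusted p = 0.121), and the interaction was 1.07 ± 0.20 (adjusted p = 0.0138). For Serpinf1, the wild-type arrays read 4004, 3589.7 and 4085 at 12 h and 1238, 1409.7 and 1269 at 24 h, and the mutant arrays 4115, 4771 and 4186 and 2756, 2323 and 2481. At 24 h each mutant array was above each wild-type array. Serpinf1 fell in both, by 1.55 in the wild type and 0.71 in the mutant (interaction 0.84 ± 0.16, adjusted p = 0.0120). On the values as deposited Timp3 and Serpinf1 did not pass (adjusted p = 0.0683 and 0.0903), nor did they as the mean over probe sets (adjusted p = 0.119 and 0.443).

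The largest positive interactions among called genes, those of Srpx2, Vav2, Tnni3k and Gm16364, belonged to genes whose signals did not exceed 129 in the 12 arrays. Srpx2, for a secreted protein with sushi repeats, had the highest called interaction, 2.07 ± 0.41 (adjusted p = 0.0183). Wild-type Srpx2 signals were 70.4, 61.4 and 46.6 at 12 h and 4.75, 16.9 and 7.03 at 24 h, and in the mutant they were 51.2, 30.9 and 83.9 at 12 h and 79.7, 89.3 and 108 at 24 h. The groups overlapped at 12 h and were apart at 24 h, when all wild-type arrays were at or below a signal of 16.9. Svep1 encodes a matrix protein with many sushi and EGF-like repeats. Svep1 arrays of the wild type gave 146, 93 and 148 at 12 h and 23.4, 16 and 21.7 at 24 h, while those of the mutant gave 224, 169 and 144 and 171, 113 and 149.8. The groups again overlapped at 12 h and were apart at 24 h. Its interaction was 1.64 ± 0.34 (adjusted p = 0.0228). Vav2 encodes a signalling protein of the Vav family. Vav2 signals at 12 h were 102, 87.7 and 129 in the wild type and 63.8, 67.7 and 71.4 in the mutant, and at 24 h 6.50, 7.50 and 43.8 in the wild type and 75.8, 91.7 and 80.2 in the mutant. The third wild-type array at 24 h, the one that stood apart, was well above the other 2, and the interaction was 2.03 ± 0.39 (adjusted p = 0.0144). Other Vav2 probe sets, at lower signal, gave -0.24 and -0.50, and the mean over probe sets 0.43 (adjusted p = 0.700).

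Pold3 encodes a subunit of DNA polymerase delta. For Pold3, the wild-type arrays read 140.3, 163 and 186 at 12 h and 17.2, 19.8 and 32.8 at 24 h, and the mutant arrays 122, 116 and 196 and 137, 79.9 and 89. Overlap at 12 h gave way to separate groups at 24 h. Pold3 fell by 2.25 in the wild type, and its change in the mutant was -0.59 (adjusted p = 0.0743). The interaction was 1.66 ± 0.32 (adjusted p = 0.0138). Amot encodes angiomotin, a scaffold of cell junctions that binds YAP. Wild-type Amot signals were 252, 289.7 and 229 at 12 h and 154, 72.4 and 47.6 at 24 h, and in the mutant they were 347, 333 and 302 at 12 h and 339, 323 and 303 at 24 h. Mutant arrays were above the wild type at both times, at 12 h without a call (0.31, adjusted p = 0.766). Amot fell by 1.53 in the wild type, where replicate 1 was highest at 24 h, with a change of -0.011 in the mutant (adjusted p = 0.990) and an interaction of 1.52 ± 0.34 (adjusted p = 0.0453). The 2 other Amot probe sets gave 0.088 and 0.46, and the mean over probe sets 0.69 (adjusted p = 0.237). For Pold3 that mean gave 1.04 (adjusted p = 0.273). Gm16364, a predicted gene, had signals no higher than 47.2 in any of the 12 arrays and an interaction of 1.76 ± 0.38 (adjusted p = 0.0374). With 1 array left out, Vav2 did not pass without wild-type 12 h replicate 3 or 24 h replicate 1 and Pold3 not without mutant 12 h replicate 2 (largest adjusted p 0.0550 and 0.05005). Srpx2 passed in 7 of 12 fits, Svep1 in 5, Gm16364 in 2 and Amot in 1, with adjusted p up to 0.0831, 0.0851, 0.131 and 0.114.

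The other 28 genes that opened with the mutant higher are described together, and those named here were chosen after their values were seen. Interactions of genes for secreted or matrix proteins were those of Aspn (1.41), Cilp (1.40), Ccdc80 (1.15), Lrrc15 (1.13), Mfge8 (0.80) and Fstl1 (0.76). Bcat1, the branched-chain aminotransferase, had 1.48. Slc3a2, the heavy chain of amino acid transporters, had 0.87, and Slc20a1, a phosphate transporter, 0.99. Gfra1, a receptor of glial-derived neurotrophic factor, had 1.27, and Tpm4, a tropomyosin of the cytoskeleton, 0.69. Bcat1, Ccdc80, Erp29, Gfra1, Mfge8, Slc20a1 and Slc3a2 passed with any 1 of the 12 arrays left out.

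A deficit of the mutant opened in 2 genes. Dynlt3 encodes a light chain of the dynein motor. Dynlt3 arrays of the wild type gave 94.6, 109 and 83.8 at 12 h and 637, 595 and 712 at 24 h, while those of the mutant gave 83.8, 98.8 and 124 and 339.8, 351 and 299. The groups overlapped at 12 h, both rose, and at 24 h every mutant array was below the wild type, with an interaction of -1.03 ± 0.23 (adjusted p = 0.0413). Its 3 other probe sets had interactions of -1.90, -1.62 and -0.85. Xrcc6 encodes Ku70, which binds broken DNA ends. Xrcc6 signals at 12 h were 345, 331 and 377 in the wild type and 323, 384 and 318 in the mutant, and at 24 h 407, 532 and 410.1 in the wild type and 223, 229 and 290.3 in the mutant. Both groups overlapped at 12 h and were apart at 24 h. The mutant fell by 0.45 (adjusted p = 0.0128), the wild type did not change beyond the threshold (0.34, adjusted p = 0.0667), and the interaction was -0.80 ± 0.18 (adjusted p = 0.0473). With 1 array left out, Dynlt3 passed in 3 of 12 fits and Xrcc6 in 1 (adjusted p up to 0.124 and 0.184).

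Gsto1, a glutathione transferase, was the 1 gene whose excess widened. For Gsto1, the wild-type arrays read 4239, 4094 and 3748 at 12 h and 1457, 1582 and 1414 at 24 h, and the mutant arrays 5110.4, 6241 and 4999 and 3479, 2807 and 3436. Mutant arrays were above wild-type arrays at both times, and the difference grew from 0.48 to 1.19 (interaction 0.71 ± 0.14, adjusted p = 0.0138; without wild-type 12 h replicate 1, adjusted p = 0.0607). Tnni3k, a kinase known from heart muscle, passed in the interaction (1.93 ± 0.43, adjusted p = 0.0432) but in neither single time. Wild-type Tnni3k signals were 50.5, 53.2 and 41.6 at 12 h and 10.2, 6.05 and 9.70 at 24 h, and in the mutant they were 16.2, 22.4 and 11.9 at 12 h and 48.4, 37.2 and 24.1 at 24 h. Mutant arrays were below the wild type at 12 h and above it at 24 h. These signals are low, and the call held in 1 of 12 fits with 1 array left out (adjusted p up to 0.124).

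The positive interactions came more often from a fall in the wild type than from a rise in the mutant. Of the 54 genes, 41 fell in the wild type between 12 h and 24 h, against 9.20% of all genes, and 21 rose in the mutant, against 7.12%. Both fell in 12, only the wild type passed in 21, and the wild type fell while the mutant rose in 8. In 9 only the mutant passed, by a rise, and in 4 both rose, against 7.95% of all genes that rose in the wild type. These changes share their arrays with the interaction, so they describe its parts and do not support it. In the 39 genes that opened with the mutant higher, the median change was -1.14 in the wild type and 0.053 in the mutant. In the 13 genes whose 12 h deficit closed, partly closed or crossed, 9 fell in the wild type and 7 rose in the mutant.

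**Figure D3:**
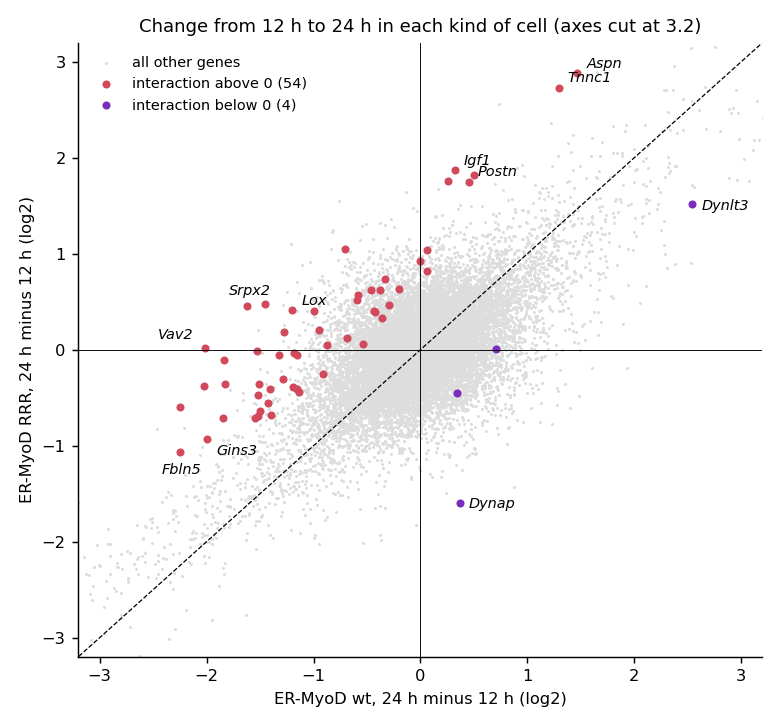
Each point is a gene placed by its change from 12 h to 24 h in the wild type (x axis, log2) and in the mutant (y axis, log2), with the 54 positive interactions in red, the 4 negative in purple and the dashed line marking equal change. Most red points lie left of 0, where the wild type fell, and Tnnc1, Igf1 and Postn lie where the mutant rose.

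The empty retrovirus arrays show what the same genes did without MyoD. Of the 39 genes that opened with the mutant higher, 22 rose and 3 fell in empty retrovirus cells between 12 h and 24 h, against 5.85% and 6.63% of all genes, with a median change of 0.53. At 24 h the wild type was below the empty retrovirus in 35 of them and the mutant in 18, against 14% and 10.4% of all genes. The mutant was above the empty retrovirus in 7 of them, against 8.51% of all genes, and the wild type in 1, against 11.4%. The median difference from the empty retrovirus was -1.41 for the wild type and -0.34 for the mutant. These 24 h differences share the wild-type and mutant arrays with the interaction. The choice of the 39 genes favoured low wild-type values at 24 h, so these counts and medians describe the chosen genes and do not support the result. At 6 h, 5 of the 39 were lower in the mutant and 0 higher, against 2.03% and 1.64% of all genes. Of the 13 genes whose 12 h deficit closed, partly closed or crossed, 8 were lower in the mutant at 6 h.

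Myog, the gene of myogenin, had one of the largest 12 h deficits, and its change fell short of the threshold. Myog arrays of the wild type gave 669, 562 and 609 at 12 h and 6196, 6079 and 6063 at 24 h, while those of the mutant gave 162, 128 and 185 and 3577, 3594 and 4479.7. All mutant arrays were below all wild-type arrays at both times, and empty retrovirus cells stayed at 16.7, 12.9 and 15.4 at 24 h. The log2 difference shrank from -1.84 (adjusted p = 6.08e-06) to -0.54 (adjusted p = 0.195), while the gap in mean signal grew from -455 to -2229. The interaction of 1.30 ± 0.32 had a 95% interval of 0.66 to 1.95 and an adjusted p of 0.0750 by limma. It passed with a pseudocount of 64 (adjusted p = 0.00337), among genes with a signal of at least 100 (adjusted p = 0.0329) and in a fit of the 12 arrays alone (adjusted p = 0.0140). In the other 21 of 24 alternatives it did not pass. These included all 12 fits that left out 1 array (adjusted p 0.0855 to 0.220).

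Other muscle genes with a called deficit at 12 h had positive interactions that did not pass with 1 probe set per gene. Mymk, for the membrane protein that drives myoblast fusion, went from -1.53 to -0.39 (interaction 1.14 ± 0.36, adjusted p = 0.248). Mymk signals at 12 h were 3723, 3646 and 3116 in the wild type and 1394, 1048 and 1225 in the mutant, and at 24 h 7513, 8768 and 9098 in the wild type and 5314, 6003 and 6579 in the mutant. The mutant arrays were below the wild type at both times. The troponin T gene Tnnt2, of embryonic muscle, had 0.75 ± 0.33 (adjusted p = 0.503) at the probe set used. A second Tnnt2 probe set of similar signal gave 1.02 ± 0.20, which passed (adjusted p = 0.0328 in limma over all 45037 probe sets), and the mean over the gene's probe sets gave 0.70 (adjusted p = 0.281). Actc1, the actin of cardiac and embryonic muscle, had 0.90 ± 0.40 (adjusted p = 0.504). Actg2, a smooth muscle actin, came nearest to the threshold. For Actg2, the wild-type arrays read 927, 828 and 680.5 at 12 h and 158, 155 and 105 at 24 h, and the mutant arrays 135, 126 and 93.4 and 61.1, 62.7 and 87.2. Mutant arrays were lower at both times. Its interaction was 1.63 ± 0.38 (adjusted p = 0.0524), and the wild type fell by 2.46 after 12 h. Actg2 passed in 5 of 24 alternatives, among them the values as deposited (adjusted p = 0.0346) and genes with a signal of at least 100 (adjusted p = 0.0249). With 1 array left out it passed in 1 of 12 fits, that without wild-type 24 h replicate 2 (adjusted p = 0.0415). The adjusted p of those 12 fits reached 0.166.

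Among muscle genes with low signal at 12 h, Tnnt3, the fast troponin T, had differences of -0.26 at 12 h (adjusted p = 0.923) and -0.99 at 24 h (adjusted p = 0.174), neither of which passed. Wild-type Tnnt3 signals were 36, 48.5 and 37.8 at 12 h and 1750.4, 2032 and 2000.3 at 24 h, and in the mutant they were 22, 36.8 and 34.8 at 12 h and 774, 1040.3 and 968 at 24 h. The groups overlapped at 12 h and were apart at 24 h. The interactions were -0.73 ± 0.56 for Tnnt3 (adjusted p = 0.795), -0.43 ± 0.60 for Mylpf, a fast myosin light chain (adjusted p = 0.923), and -0.70 ± 0.45 for Chrna1, the acetylcholine receptor alpha subunit (adjusted p = 0.732). Their 95% intervals, -1.88 to 0.42, -1.66 to 0.80 and -1.63 to 0.23, include both no change and a change of more than 1 on the log2 scale in Tnnt3, Mylpf and Chrna1 alike. For Tnni1 (0.29 ± 0.54), Acta1 (0.41 ± 0.53), Chrng (0.52 ± 0.40) and Mef2c (-0.54 ± 0.30) the interaction did not pass either, nor for Ckm (0.48 ± 0.35, with -0.41 at its other probe set), Des (-0.10 ± 0.42), Myh3 (-0.22 ± 0.59) or the cell cycle inhibitors Cdkn1a (0.28 ± 0.23) and Rb1 (-0.022 ± 0.32). The other Des probe set gave -1.06, with a 24 h difference of -1.21 against -0.34 at the probe set used. Other Mef2c probe sets gave -1.37 to 0.10. None of these Des and Mef2c probe sets passed over all 45037.

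**Figure D4:**
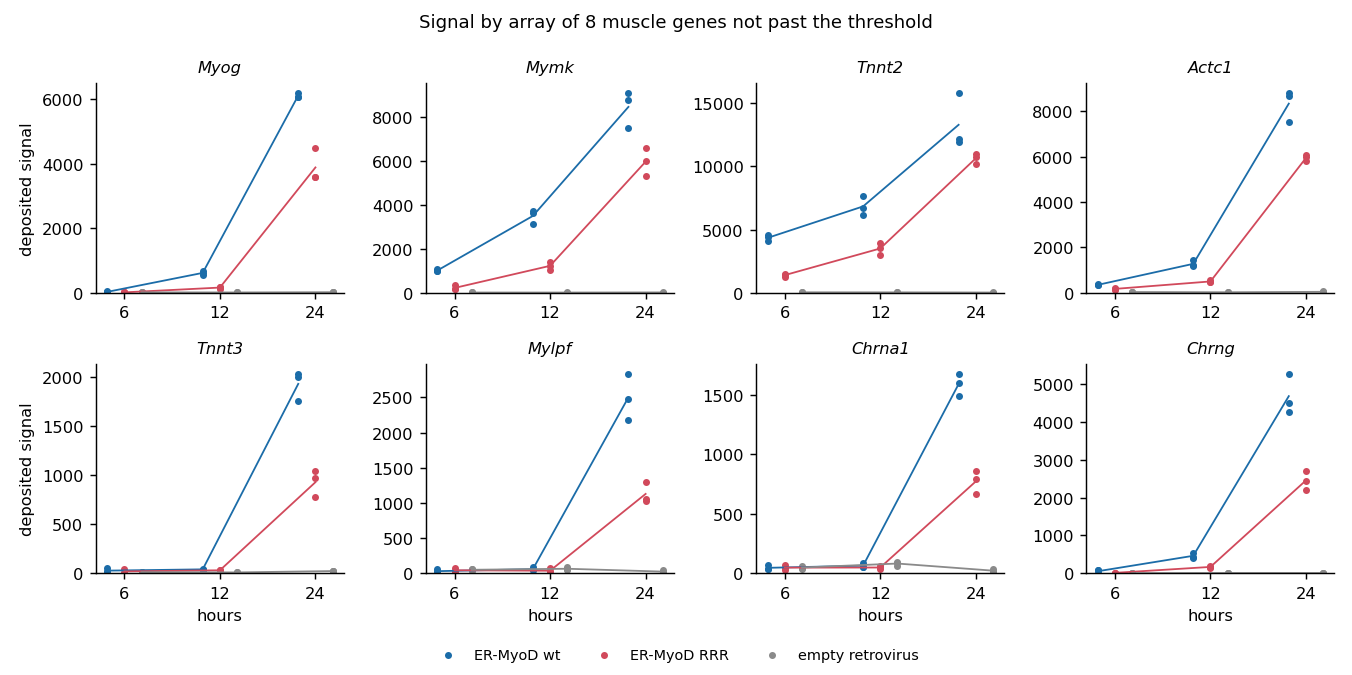
Deposited signal (y axis) against hours in differentiation medium (x axis, spaced by time point) for 8 muscle genes whose interaction did not pass at the probe set shown, with 1 point per array and lines through group means. The mutant (red) lies below the wild type (blue) at 24 h in every panel, and the empty retrovirus (grey) stays near 0.

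Differences that were present at 12 h and whose interaction did not pass numbered 303. Dcn, for the fibroblast proteoglycan decorin, was higher in the mutant at both times. Dcn arrays of the wild type gave 1111, 881 and 1108 at 12 h and 2684, 2636 and 2015 at 24 h, while those of the mutant gave 3043, 3781 and 3194 and 5912, 5205 and 6271. Mutant arrays were above the wild type throughout, without overlap. Its difference was 1.71 at 12 h and 1.26 at 24 h, and its interaction -0.45 ± 0.18 (adjusted p = 0.409, 95% interval -0.82 to -0.09). Mmp3, a protease of the matrix, had a difference of 1.61 at 12 h and 1.62 at 24 h, and the 95% interval of its interaction was -0.41 to 0.42. Id3, an inhibitor of MyoD dimers, was higher in the mutant at both times (1.24 and 0.95), and Ccnd3, the cyclin D of differentiating muscle, lower (-1.08 and -0.78). Hes6, a helix-loop-helix gene activated in myoblasts, was lower as well (-1.12 and -0.67).

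The 145 genes (0.797% of those tested) lower in the mutant at 12 h with no called interaction included 72 that were again lower at 24 h, and the 158 higher ones 97 that were again higher. Among all genes 2.02% were called lower and 3.34% higher at 24 h. Medians moved from -0.82 to -0.56 and from 0.82 to 0.70. These genes were chosen for an interaction that did not pass, which uses the 24 h arrays. Their agreement at 24 h is therefore partly built in and is no support for persistence. By the naming rule the 6 largest uncalled interactions of each direction are given. Actg2 and Myog are described above. Others were those of Meak7 (-1.79 ± 0.51, adjusted p = 0.160), S100a8 (-1.56 ± 0.42, adjusted p = 0.128), Zfp316 (1.54 ± 0.41, adjusted p = 0.113), Olfr17 (1.45 ± 0.45, adjusted p = 0.232) and the Wnt antagonist Dkk2 (-1.33 ± 0.35, adjusted p = 0.120). Dkk2 signals at 12 h were 7.86, 37 and 20.7 in the wild type and 124, 171 and 117 in the mutant, and at 24 h 14.7, 13.2 and 13.2 in the wild type and 45.1, 32.9 and 37.6 in the mutant. Mutant arrays of Dkk2 were above wild-type arrays at both times, and empty retrovirus cells were far above both, with 639.5, 541 and 699.6 at 24 h. Slc2a6, a sugar transporter, had a called deficit of -1.34 at 12 h and a difference of -0.045 at 24 h that did not pass, with an interaction of 1.29 ± 0.31 (adjusted p = 0.0740). Ces5a (-1.18 ± 0.58), 1500004A13Rik (-1.20 ± 0.41), Gm26782 (-1.13 ± 0.38) and 4930403D09Rik (1.27 ± 0.41) complete them.

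Gene lists are described by counts and medians, and their members named here without a call were chosen after their values were seen. Of 38 measured fibroblast and matrix genes, 8 were higher and 3 lower in the mutant at 12 h, against 0.885% and 0.868% of all genes, and 25 were higher and 0 lower at 24 h, against 3.34% and 2.02%. Their interactions had a median of 0.57, beside -0.00066 for all genes, with 32 above 0, 23 positive at an unadjusted p under 0.05 and 5 past the threshold (Lox, Postn, Fbln5, Col5a2 and Col12a1). Among all 18193 genes, 9079 interactions were above 0, 905 were positive at an unadjusted p under 0.05 and 54 were positive past the threshold (0.297%). Collagens that fell just short were Col1a1 (1.20 ± 0.29, adjusted p = 0.0766) and Col6a2 (0.71 ± 0.16, adjusted p = 0.0526), and Fn1, fibronectin, had 0.73 ± 0.17 (adjusted p = 0.0526). With median centring the list's median was 0.36, beside -0.11 for all genes, and 12 members were higher at 24 h, against 175 of all 18193 genes. The 11 fibroblast markers, all of which the list also holds, moved with this result: their summed signal was 29599 to 38952 in the wild type and 44305 to 50336 in the mutant at 24 h. At 12 h the sums were 29270.2 to 30608 and 33831 to 39649. The 8 adipocyte markers summed to 715 to 779 in the wild type and 854 to 983 in the mutant at 12 h, and to 896 to 1169 and 1624 to 1710.0 at 24 h, with 5 of 8 under a signal of 100 in all 12 arrays. Of these 8, only Lpl was called at 24 h (0.99, adjusted p = 0.000285), 4 had a difference above 0 there, and the median interaction was -0.16, with 2 above 0. The part of either marker set in the result was not tested. Of 21 proteases and inhibitors of the matrix, 5 were higher at 12 h and 11 at 24 h, against the same shares, with a median interaction of 0.34. Adamts1, Timp3 and Serpinf1 had positive called interactions there and Ctsl a negative one.

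Cell cycle genes fell in both kinds of cells. Of 37 genes of mitosis all 37 fell in each between 12 h and 24 h, against 9.20% of all genes in the wild type and 8.22% in the mutant, with medians of -2.46 and -2.10. At 24 h 14 of them were higher in the mutant and at 12 h 1, against 3.34% and 0.885% of all genes, but no single interaction passed. The median interaction was 0.53. Interactions of 33 were above 0 and 16 were positive at an unadjusted p under 0.05, against 9079 and 905 of all 18193 genes. The kinase gene Cdk1 is an example, with 0.72 ± 0.18 (adjusted p = 0.0960), and the proliferation marker Mki67 another (1.21 ± 0.36, adjusted p = 0.190). With median centring 2 of the 37 were higher at 24 h, against 175 of all 18193 genes. Of 37 genes of DNA replication 11 were higher at 24 h and 0 at 12 h, against the same shares, the median interaction was 0.27, and Gins3 alone passed. With median centring 1 was higher at 24 h, against 175 of all 18193 genes.

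Cholesterol is made by enzymes under common control of SREBP factors, and no single interaction of this pathway passed. Of 20 measured, 5 were lower at 12 h (0.868% of all genes) and 3 lower and 1 higher at 24 h (2.02% and 3.34% of all genes), with medians of -0.50 and -0.081. The median interaction was 0.47. Interactions of 19 were above 0 and 8 were positive at an unadjusted p under 0.05, against 9079 and 905 of all 18193 genes. In the mutant 16 rose after 12 h and in the wild type 6, against 7.12% and 7.95% of all genes. Lss, lanosterol synthase, kept a called deficit (-1.06 at 12 h and -0.63 at 24 h). Nsdhl, an enzyme of a later step, went from -0.58 (adjusted p = 0.00748) to -0.11 (adjusted p = 0.748), with an uncalled interaction of 0.47 ± 0.17 (adjusted p = 0.356). With median centring the list's medians were -0.49 at 12 h and -0.28 at 24 h.

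The called interactions in the muscle lists were those of Tnnc1 and Fhl1. Over all genes 0.319% of interactions were called, so a list of this size with no call is near that share. Of 22 thin filament genes 6 were lower in the mutant at 12 h, and 2 lower and 1 higher at 24 h. The shares of all genes were 0.868% lower at 12 h, and 2.02% lower and 3.34% higher at 24 h. The list's median interaction was 0.27, and with 1 probe set per gene Tnnc1 alone passed, beside the second probe set of Tnnt2 given above. Interactions of 17 of the 22 were above 0. At an unadjusted p under 0.05, 6 were positive and 1 negative. Among all 18193 genes 9079 were above 0, and 905 were positive and 682 negative at that threshold. No interaction passed among 24 thick filament genes (median -0.18), 25 Z-disc genes (-0.017), 16 genes of the acetylcholine receptor and synapse (0.09), 26 of calcium handling (-0.052), 23 of muscle energy metabolism (-0.067) or 29 of fusion and adhesion (0.21). In the same order, 9, 12, 11, 11, 10 and 25 interactions were above 0. At an unadjusted p under 0.05, 0, 3, 1, 0, 0 and 7 were positive and 1, 0, 0, 3, 1 and 0 negative. The sign of the median changed with scaling for the acetylcholine receptor list, to -0.016 with median centring, and for the calcium and Z-disc lists, to 0.07 and 0.084 as deposited. Fhl1 was the 1 gene that passed among 30 myogenic regulators (median -0.024), of which 14 were above 0, with 3 positive and 0 negative at an unadjusted p under 0.05.

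**Figure D5:**
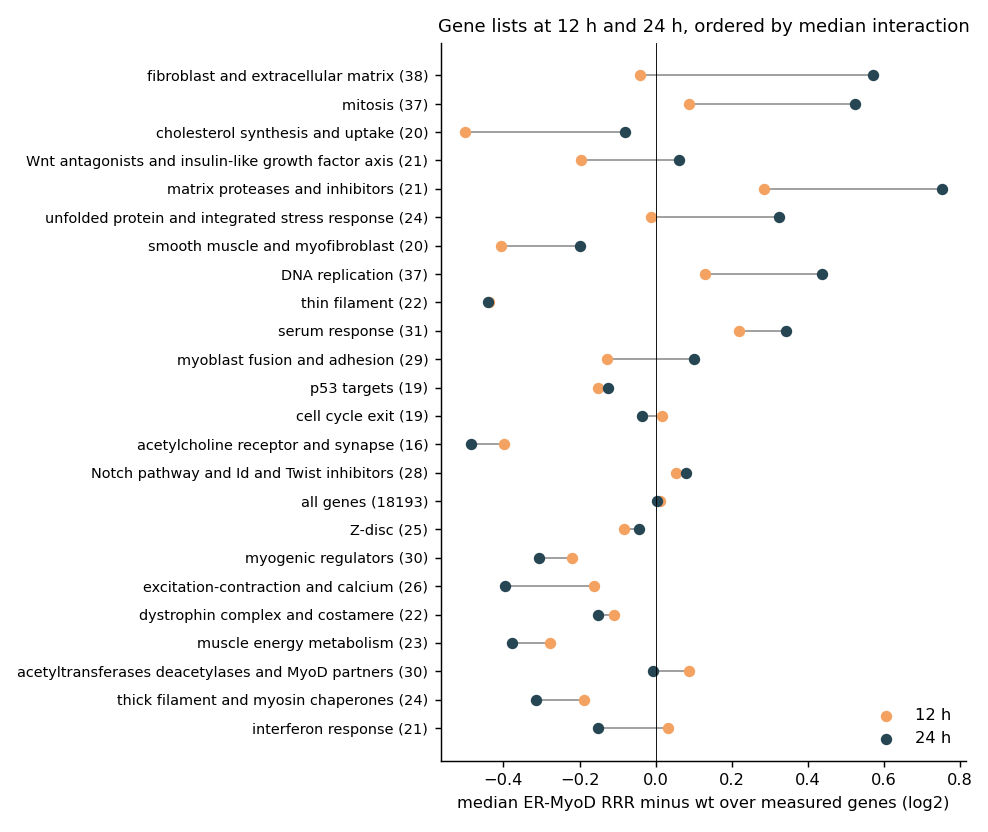
Median mutant minus wild-type difference (x axis, log2) of each gene list at 12 h (orange) and 24 h (dark blue), with the number of measured genes in brackets and lists ordered by their median interaction. The fibroblast and matrix list moves from near 0 to 0.57, mitosis from 0.088 to 0.52 and cholesterol from -0.50 to -0.081, while the thin filament list stays at -0.44.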

How the data were processed

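RNA of 30 samples was hybridised to 1-colour mouse arrays of 45101 probe sets, and 12 arrays in 4 groups of 3 enter the interaction. The authors deposited 1 linear intensity per probe set and array. Which scanner software, summarisation and scaling were used is not given in the sources used here. The mean after leaving out the highest and lowest 2% is 150 on every array, so the values were scaled between arrays. How many arrays there are limits the precision, and the deposited intensities hold no counts of molecules.

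After 64 control probe sets were left out, log2(signal + 16) was quantile-normalised over the 30 arrays and fitted with limma 3.58.1 in R 4.3.3 (group means, trended prior, 20 residual degrees of freedom). Of 45037 probe sets, 34945 have 1 gene symbol in the platform annotation, 932 several and 9160 none. The probe set with the highest mean log2 value stood for a gene, giving 18193 genes, 9010 of them with several probe sets, over which Benjamini-Hochberg adjustment ran. The procedure was tested on simulated data. Replicate numbers are not used as a block, since same-numbered arrays did not deviate together (correlations of -0.088 to 0.0775 over 18 pairs).

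Named genes are the 10 most positive and 10 most negative called interactions, the 6 largest interactions of each class and direction, up to 4 called members of each of 32 gene lists with the smallest p, and a list of muscle and fibroblast genes. The comparison, the classes and the lists were chosen with earlier results of these data known. Alternatives covered normalisation, pseudocount, a signal filter of 100, the arrays in the fit, the prior, the probe sets, array weights, the replicate block and each array left out. Promoter windows are RefSeq's on GRCm38.p6.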

Additional observations from a re-analysis of the deposited data

Results flagged for a closer look

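A difference between mutant and wild type that changed from 12 h to 24 h by limma's test of the interaction itself was found in 58 genes. The 27 of these named above are listed here for that reason, with their interactions on the log2(signal + 16) scale. Among genes that opened with the mutant higher they were 2.07 for Srpx2, 2.03 for Vav2, 1.76 for Gm16364, 1.66 for Pold3, 1.64 for Svep1, 1.52 for Amot, 1.46 for Adamts1, 1.30 for Postn, 1.12 for Col5a2, 1.07 for Timp3 and 0.84 for Serpinf1. For genes whose 12 h deficit closed, partly closed or crossed they were 1.73 for Col12a1, 1.61 for Lox, 1.55 for Igf1, 1.44 for Tnnc1, 1.32 for Plagl1, 1.18 for Fbln5, 1.15 for Rftn1, 1.07 for Gins3, 0.97 for Fhl1 and 0.84 for P4ha2. Gsto1, which widened, had 0.71, and Tnni3k, called at neither time alone, 1.93. The negative interactions were -0.70 for Ctsl, -0.80 for Xrcc6, -1.03 for Dynlt3 and -1.96 for Dynap.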

How the results depend on the processing

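The count of 58 interaction genes was 31 on the values as deposited, 1 with median centring, 15 with the 12 arrays alone, 25 without a trend in the prior, 27 with the mean over probe sets, 135 with array weights and 90 without the 3 arrays that stood apart in median signal or replicate correlation (ER-MyoD wt 24 h replicate 3, ER-MyoD RRR 6 h replicate 2 and empty retrovirus 12 h replicate 1). In the same order, the 39 genes that opened with the mutant higher became 20, 1, 8, 16 and 21, and 63 with array weights. The 13 genes whose 12 h deficit closed, partly closed or crossed became 0 with median centring, 6 with the 12 arrays alone, 7 without a trend, 4 with the mean over probe sets and 30 with array weights. The 303 held genes became 130, 536 and 468 with median centring, array weights and without the 3 arrays. The 319 genes called at 12 h became 130, 578 and 491 in those settings, and the 975 at 24 h became 474 with median centring. Leaving out 1 array gave 31 to 69 interaction genes, 20 to 43 opening, 6 to 16 closing and 143 to 348 held genes, 151 to 358 genes at 12 h and 655 to 958 at 24 h. With the replicate number as a block, which the data did not bear out as a pairing (6 of 12 arrays correlated best with their own number), the interaction passed in 69 genes, 54 of them shared with the 58. Every probe set tested separately, an alternative chosen after seeing the data, gave 36 positive and 5 negative calls. The sign held in all 645 alternative values of the 27 called named genes, and the call was lost in 211. The sign could not change with the 12 arrays alone, no trend, the replicate block, the signal filter or every probe set. These settings leave the estimate of a gene as it was. The others reuse arrays by which the genes were chosen, so the held signs are no independent support. The interaction of Mylpf, which was not called, ranged from -0.90 to 0.025 with 1 array left out and reversed sign only without ER-MyoD RRR 12 h replicate 2. Among 26 other named genes the sign changed in 29 of 618 values, all for Mmp3, Rb1, Des, Myh3, Myod1, Tnni1 or Cdkn1a, none of them called. Why the counts moved with normalisation was not tested. Signals near the lowest values carry little information on a log scale, and 3 arrays a group leave most single interactions below the threshold uncertain rather than absent.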

Other observations

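Lists outside the results above are given here beside the 0.319% of all genes with a called interaction. Genes named here were chosen after their values were seen. Of 21 genes of the interferon response, 0 interactions passed in limma, with a median of -0.38. At an unadjusted p under 0.05, 4 were negative and 0 positive, against 682 and 905 of all 18193 genes. Ifit3, an antiviral effector, went from 1.17 at 12 h to -0.84 at 24 h (interaction -2.01 ± 0.60, adjusted p = 0.191). Of 24 genes of the unfolded protein and integrated stress response, 21 had an interaction above 0 and 0 passed, with a median of 0.33. Of these 24, 4 were positive at an unadjusted p under 0.05, against 905 of all 18193 genes. Ddit3, a stress-induced transcription factor, was higher in the mutant at 24 h (0.78, adjusted p = 0.0144). Pdia6, a protein disulfide isomerase of the endoplasmic reticulum, was higher as well (0.53, adjusted p = 0.0155). With median centring the medians of these 2 lists were -0.39 and 0.13.

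Smooth muscle and myofibroblast genes held no called interaction among 20 measured, with 7 positive and 2 negative at an unadjusted p under 0.05, against 905 and 682 of all 18193 genes. Of these genes 5 were lower and 1 higher in the mutant at 12 h, and 4 lower and 2 higher at 24 h. Among all genes 0.868% were lower and 0.885% higher at 12 h, and 2.02% lower and 3.34% higher at 24 h. The serum response list of 31 genes had 9 higher and 1 lower in the mutant at 24 h (3 higher with median centring, against 175 of all 18193 genes), and 1 higher and 0 lower at 12 h. Its interactions had a median of 0.22, or 0.041 with median centring, with 0 called and 4 positive at an unadjusted p under 0.05, against 905 of all 18193 genes.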
